A study of Homo sapiens with 30 samples.

Results

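Nascent transcription of 10 genes for SR splicing factors (SRSF1, SRSF2, SRSF3, SRSF4, SRSF5, SRSF6, SRSF7, SRSF10, SRSF11 and TRA2B) was followed in A549, a cell line from a human adenocarcinoma of the lung. The genes were chosen by name, out of 58780 genes in the deposited count table. The names matched 11 rows, because SRSF1 also stands on the row of a neighbouring gene that GENCODE 29 calls AC015813.2. That row held 3 counts in all, in 3 libraries with at most 1 count each, and was left out. The assay was PRO-seq (precision run-on sequencing), in which polymerases that sit on genes are allowed to add a tagged base in permeabilised cells. The RNA sequenced is thus the part being made at that moment, not the amount of mature mRNA.

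The 30 libraries formed 15 groups of 2. Untreated cells, which like every other group are labelled with 0.01% DMSO, were the only control and served all treatment times. Their titles give 15 min, and no untreated group is labelled for 3 h or for 2, 4 or 7 days. Comparisons of longer treatments with them may thus also hold differences in time of culture, which cannot be told apart from the treatment. Dexamethasone (Dex, a synthetic glucocorticoid, 100 nM) was given for 15 min or 3 h. GSK591 (1 µM) inhibits PRMT5, the main enzyme of symmetric arginine dimethylation, and MS023 (1 µM) inhibits the Type I arginine methyltransferases, which make asymmetric dimethylarginine. Each inhibitor was given alone for 2, 4 or 7 days, together with Dex for 3 h, or for 7 days with Dex added at the end, again for 15 min or 3 h. The labels do not say whether the 2 libraries of a group came from separate cultures, so p-values measure the spread between these libraries, which may be technical.

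SR proteins bind short motifs in exons through RNA recognition motifs and recruit the spliceosome through tails rich in arginine and serine. The tails are phosphorylated by SRPK and CLK kinases, and transportin-3 carries the phosphorylated proteins into the nucleus. Many SR genes hold a highly conserved poison exon, whose inclusion sends the transcript to nonsense-mediated decay, so that SR proteins limit their own and each other's output after transcription. Arginine methyltransferases modify several splicing proteins, among them the Sm proteins of the spliceosome.

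Promoter sequence is shown for 3 genes that turned out to differ most clearly in their behaviour: TRA2B, lower in every group with GSK591 for 2 days or more, SRSF7, lower in the count table at 2 and 4 days of either inhibitor, and SRSF10, the gene with an increase in 3 comparisons. The windows run from 250 bases before to 50 bases after the RefSeq start (GRCh38.p14), printed 5′ to 3′ on the gene's strand. Capitals mark the searched motifs, on either strand, where overlapping matches merge. TRA2B lies at chr3:185937965-185938264 (minus strand), SRSF7 (its window with a TATA box) at chr2:38751312-38751611 (minus strand) and SRSF10 at chr1:23980278-23980577 (minus strand).
TRA2B: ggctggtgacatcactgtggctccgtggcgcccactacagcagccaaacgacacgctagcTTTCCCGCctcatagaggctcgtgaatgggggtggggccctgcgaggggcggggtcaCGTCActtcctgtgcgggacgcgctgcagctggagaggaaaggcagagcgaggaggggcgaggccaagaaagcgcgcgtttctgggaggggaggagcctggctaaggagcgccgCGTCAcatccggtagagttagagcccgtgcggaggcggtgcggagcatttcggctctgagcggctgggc
SRSF7: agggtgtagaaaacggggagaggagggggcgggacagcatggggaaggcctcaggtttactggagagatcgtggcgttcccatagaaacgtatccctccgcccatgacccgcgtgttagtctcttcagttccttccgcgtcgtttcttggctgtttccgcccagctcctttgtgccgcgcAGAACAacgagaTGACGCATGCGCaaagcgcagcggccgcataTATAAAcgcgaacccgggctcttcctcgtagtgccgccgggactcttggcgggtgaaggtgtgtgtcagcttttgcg
SRSF10: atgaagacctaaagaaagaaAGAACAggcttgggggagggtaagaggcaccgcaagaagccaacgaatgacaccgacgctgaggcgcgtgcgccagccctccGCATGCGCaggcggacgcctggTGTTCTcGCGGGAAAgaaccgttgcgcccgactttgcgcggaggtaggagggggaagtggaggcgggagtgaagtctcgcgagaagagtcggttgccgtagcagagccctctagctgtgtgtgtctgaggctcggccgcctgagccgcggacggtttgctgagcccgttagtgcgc

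The TRA2B window holds the half-site of the cyclic AMP response element (TGACG, or CGTCA on the other strand) with first bases at -133 and -19 from the start, and an E2F site (TTTCCCGC) at -190. SRSF7 carries AGAACA, a half-site of the glucocorticoid receptor, at -70, and then TGACG at -58, which overlaps the NRF1 core GCATGCGC at -54. A TATA box (TATAAA) follows at -27. SRSF10 has the receptor half-site at -230 and, as TGTTCT on the other strand, at -126, with the NRF1 core at -148 and the E2F site, as GCGGGAAA, at -119.
The RefSeq table held windows for 9 of the 10 genes, and not for SRSF2. These 9 genes had 11 windows, and a gene was counted if any of its windows held the motif. TGACG was present in 6 of these 9 genes (SRSF1, SRSF3, SRSF5, SRSF7, SRSF11 and TRA2B), in 7 of their 11 windows, and in 24.6% of all 35116 windows of the same length. The letters CG, which TGACG holds, occurred 17 to 48 times in the windows of these genes, against a median of 14 over all windows. The receptor half-site was found in 2 of 9 genes and in 14.8% of all windows, and TTTCCCGC in 2 of 9 genes and in 1.63%. GCATGCGC was in 2 of 9 genes and in 3.05% of windows, and TATAAA in 3 of 9 genes (SRSF3, SRSF7 and SRSF11) and in 11.5%. The match of SRSF11 is TTTATA, on the other strand at -206. Of the other motifs searched, CCAAT was in 1 of 9 genes and in 34.6% of windows, and the ETS site CCGGAAG in 2 of 9 and in 10.3%. A second E2F form, TTTGGCGC, was in 0 of 9 genes and in 0.652% of windows, and the E-box CACGTG in 0 of 9 and in 7.26%. A match is a run of letters and not a measured binding site.

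Levels are given as CPM, the count scaled by library size with edgeR's TMM factors. The feature counted is not given in the sources used here, and levels per kilobase take exonic length on the assumption that exons were counted. Total counts ran from 8441211 to 13069598 per library, of which mitochondrial genes took 58.7% to 78.7%, and 2507 to 5461 counts per library fell on the 10 genes. The mitochondrial share moved with the treatment: it was 73.4% and 76.0% in the untreated libraries and 58.7% and 59.6% after 7 days of MS023, and without mitochondrial and ribosomal RNA genes 40 of the 41 calls described here were made again. The libraries of Dex with MS023 were least alike (Pearson's r of 0.923 across genes), and its replicate 2 had the highest share of processed pseudogene counts, 2.02%. Dex-induced genes followed the labels at 3 h, with log2 fold changes of 2.90 for FKBP5 and 2.89 for TSC22D3. The epithelial keratin KRT8 had at least 1363 counts in every library, while the leukocyte marker CD3E had at most 5 and was at 0 in 21 libraries. Of 4 alveolar type II markers, SFTPA1 was at 0 in 17 libraries and NKX2-1 in 10, while SFTPB had 38 to 132 counts and SFTPC 5 to 42.

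**Figure D1:**
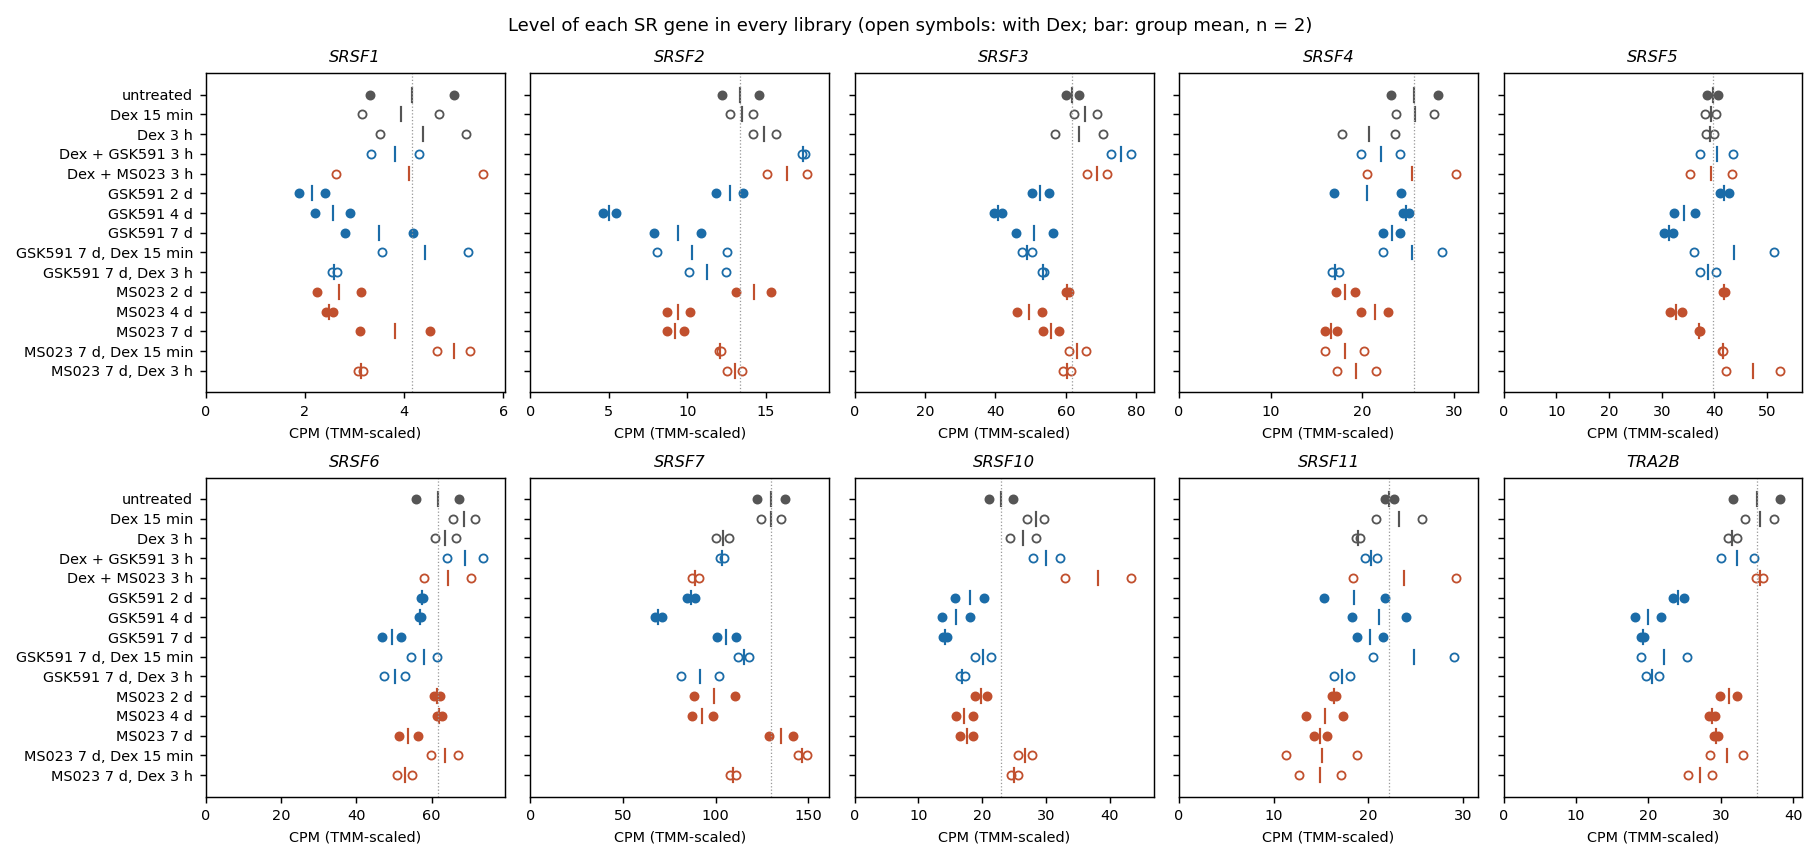
Level of each SR gene (CPM, horizontal axis from 0) in every library of the 15 groups, with bars at the group means (n = 2) and a dotted line at the untreated mean. Blue marks GSK591, orange MS023, grey neither, and open symbols Dex. TRA2B is below the untreated libraries in all 5 groups with GSK591 for 2 days or more, and SRSF2 is lowest at 4 days of GSK591.

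In untreated cells SRSF7 was the most strongly counted of the genes per length, at 32.2 CPM per kilobase of exon, followed by SRSF6 at 13.4 and SRSF3 at 8.69. SRSF5 had 7.41 CPM per kilobase. SRSF2 had 7.00 CPM and SRSF1 3.17 CPM per kilobase of exon free of other genes on both strands. TRA2B, SRSF4, SRSF11 and SRSF10 lay between 2.23 and 2.97 on the scale for free exons. Levels on this scale weigh SRSF5, SRSF11 and SRSF4 by a small part of their length, since exons make up 11.9%, 17.9% and 26.0% of those genes. The order is that of the count table and depends on the counting. In the authors' deposited tables the mean over samples was 0.377 times that of the count table for SRSF7 and 9.41 times for SRSF1.

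Across the 15 groups SRSF2 had the widest span of mean levels, 3.44-fold, followed by SRSF10 (2.70-fold), SRSF1 (2.33-fold) and SRSF7 (2.12-fold). SRSF6 had the narrowest, 1.39-fold. When the groups were put in order of their means, most neighbours overlapped: of 14 neighbouring pairs per gene, all 14 overlapped for SRSF11, 13 for SRSF1, SRSF2, SRSF4, SRSF10 and TRA2B, 12 for SRSF5 and SRSF6, 11 for SRSF3 and 10 for SRSF7. For SRSF2 the gap lay below 7 days of MS023 (9.23 CPM), above 4 days of GSK591 (5.04 CPM). For TRA2B it separated MS023 for 7 days with Dex for 3 h (27.1 CPM) from all 5 groups with longer GSK591 treatment (24.1 CPM and below). SRSF10 was highest with Dex and MS023 together (38.2 CPM) and lowest after 7 days of GSK591 (14.2 CPM).

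Which SR genes change when PRMT5 is inhibited was asked first. With GSK591 alone every call was a fall: TRA2B and SRSF7 at 2 days, these with SRSF2, SRSF3 and SRSF10 at 4 days, and TRA2B and SRSF10 at 7 days. At 2 days 2 of 10 genes were called (adjusted p below 0.05, edgeR quasi-likelihood test, adjusted over 22919 genes), where 5.64% of all tested genes were. At 4 days 5 of 10 were called against 17.2% of all genes, and at 7 days 2 of 10 against 13.2%. Genes called lower were 2.45%, 8.28% and 6.52% of all genes. The median log2 fold change of the 10 genes was -0.30, -0.56 and -0.31 at 2, 4 and 7 days, beside 0.00 for all genes tested at each time. The libraries are bulk samples, so fewer transcribing cells and less signal per cell cannot be told apart. The 10 genes are well above the filter except SRSF1, and among genes averaging 5 CPM or more the called share was higher, 9.45%, 25.2% and 18.8%.

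TRA2B (transformer-2 beta, ENSG00000136527.17, chr3:185915906-185938136, minus strand, GRCh38) activates exons through purine-rich enhancers, and it was the gene with a fall at all times of GSK591. Its untreated libraries stood at 31.7 and 38.2 CPM. With GSK591 they stood at 24.9 and 23.3 CPM after 2 days, 18.2 and 21.8 CPM after 4 days, and 19.0 and 19.4 CPM after 7 days.
All 6 treated libraries lay below both untreated ones. The log2 fold change was -0.54 (SE 0.131, adjusted p = 0.00777, edgeR) at 2 days, -0.81 (SE 0.130, adjusted p = 6.56e-06, edgeR) at 4 days and -0.87 (SE 0.134, adjusted p = 4.71e-06, edgeR) at 7 days. The difference between 7 and 2 days of GSK591 did not pass (-0.33, 95% interval -0.60 to -0.05, adjusted p = 0.148, edgeR). The call at 2 days was lost without untreated replicate 2, without GSK591 replicate 2 and with scaling by total counts. At 7 days the call held in all 11 alternatives, with a log2 fold change of -0.72 at its weakest.

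Dex after 7 days of GSK591 left TRA2B low. It stood at 19.0 and 25.3 CPM with Dex for 15 min (log2 fold change against untreated cells -0.65, SE 0.131, adjusted p = 0.000269, edgeR) and at 21.4 and 19.6 CPM with Dex for 3 h (-0.77, SE 0.132, adjusted p = 9.48e-06, edgeR). In these groups 2 of 10 genes were called against 15.5% of all genes at 15 min, and 5 of 10 against 26.8% at 3 h. Among genes averaging 5 CPM or more the called share was 23.1% and 36.9%. Both calls of TRA2B were lost with total counts and in no other alternative. At 15 min the other gene called was SRSF3, at 50.4 and 47.6 CPM, a fall of 0.34 (SE 0.113, adjusted p = 0.0328, edgeR). It was lost in 8 of 11 alternatives, among them DESeq2 and leaving out any of the 4 libraries. At 3 h SRSF7 fell by 0.50 (SE 0.108, adjusted p = 0.000297, edgeR) and SRSF10 by 0.44 (SE 0.152, adjusted p = 0.0266, edgeR), the latter lost without untreated replicate 1, without either treated library and with DESeq2. Against 7 days of GSK591 alone, TRA2B did not differ past the threshold with Dex for 3 h (0.10, 95% interval -0.18 to 0.37, edgeR), a comparison in which none of the 10 genes and 9.85% of all genes were called (2 of the 10 at an unadjusted p below 0.05, and none with DESeq2). All comparisons with untreated cells share the same 2 control libraries, so they are not independent of each other.

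SRSF2 (ENSG00000161547.16, chr17:76734115-76737374, minus strand), a factor that activates exons and marks nuclear speckles, had the largest change of the 10 genes. Untreated libraries had 14.6 and 12.2 CPM (131 and 121 counts), and those with GSK591 for 4 days had 5.47 and 4.61 CPM (57 and 46 counts).
At 2 days SRSF2 had been at 11.8 and 13.6 CPM, overlapping the untreated libraries, and at 7 days it was at 7.90 and 10.9 CPM. At 4 days SRSF2 fell by 1.40 on the log2 scale (SE 0.197, adjusted p = 4.86e-07, edgeR), a call that held in all 11 alternatives, between -1.54 and -0.97. At 7 days its value in the count table, -0.52 on the log2 scale, missed the threshold. The exons of MFSD11 on the other strand overlap 36.7% of the exonic bases of SRSF2, and the use of strand in counting is not given in the sources used here, so reads of the 2 genes may be mixed.

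SRSF7 (ENSG00000115875.18, chr2:38743599-38751494, minus strand) and SRSF3 (ENSG00000112081.16, chr6:36594353-36605600, plus strand) are shuttling SR proteins that also serve mRNA export. SRSF7 had 138 and 123 CPM in untreated cells, 88.9 and 84.8 CPM after 2 days of GSK591, 71.2 and 67.3 CPM after 4 days and 101 and 111 CPM after 7 days. The lowest libraries were those of 4 days, and at 7 days both were again above those of 2 days.
The log2 fold change of SRSF7 was -0.58 (SE 0.109, adjusted p = 0.000478, edgeR) at 2 days and -0.91 (SE 0.109, adjusted p = 1.45e-08, edgeR) at 4 days, and -0.30 at 7 days, which did not pass. The authors' deposited tables, from another counting, list SRSF7 at 0.07 at 2 days, not called. SRSF3 had 60.1 and 63.7 CPM in untreated cells and 39.6 and 41.9 CPM after 4 days of GSK591. Its fall at 4 days was 0.60 on the log2 scale (SE 0.113, adjusted p = 8.96e-05, edgeR), while the values at 2 days (-0.23) and 7 days (-0.28) did not pass. Scaling by total counts, under which the median gene rose by 0.42 at 4 days of GSK591, took the calls of SRSF3, SRSF7, SRSF10 and TRA2B at 4 days below the threshold. No other alternative did so for SRSF3, SRSF7 or TRA2B.

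SRSF10 (ENSG00000188529.14, chr1:23964804-23980927, minus strand), known as a splicing repressor when dephosphorylated, had 24.8 and 21.1 CPM in untreated cells. It stood at 15.7 and 20.3 CPM after 2 days of GSK591, 13.6 and 18.2 CPM after 4 days and 14.5 and 13.8 CPM after 7 days. The treated libraries were below the untreated ones at each time.
The fall was 0.53 on the log2 scale at 4 days (SE 0.150, adjusted p = 0.0100, edgeR) and 0.69 at 7 days (SE 0.157, adjusted p = 0.00153, edgeR). The 4-day call was lost without untreated replicate 1, without GSK591 replicate 1 and with DESeq2, and both calls with total counts.

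**Figure D2:**
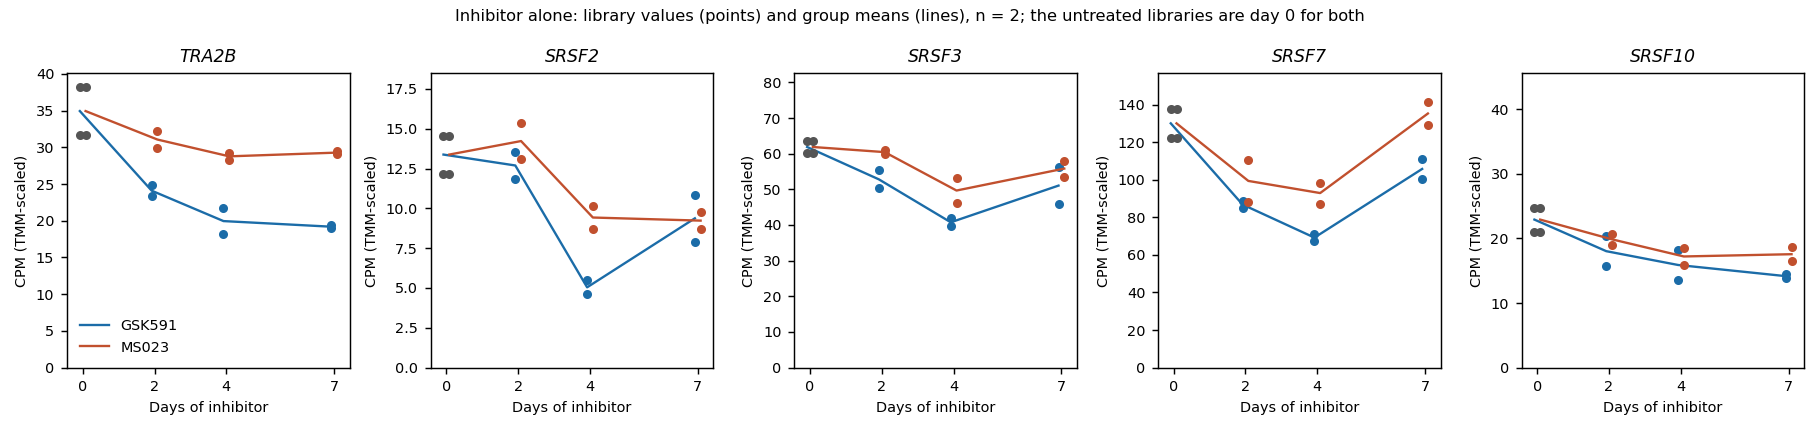
Levels (CPM, vertical axis from 0) of 5 SR genes against days of GSK591 (blue) or MS023 (orange) alone, with library values as points and lines through group means (n = 2). The untreated libraries, in grey, are drawn at day 0 for both inhibitors. TRA2B ends at 19.2 CPM with GSK591 and 29.3 CPM with MS023, and SRSF2 dips to 5.04 CPM at 4 days of GSK591.

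SRSF4, SRSF5 and SRSF6 are closely related proteins with a pair of RNA recognition motifs. With GSK591 alone none of them was called against untreated cells. SRSF6 had 56.0 and 67.4 CPM in untreated cells and 52.0 and 46.8 CPM after 7 days of GSK591, a log2 fold change of -0.32 that just missed the threshold (adjusted p = 0.0534, edgeR).
SRSF5 had 40.7 and 38.7 CPM in untreated cells and 30.5 and 32.2 CPM after 7 days of GSK591, where 42.8 and 41.0 CPM had been seen at 2 days. Between 7 and 2 days of GSK591 it fell by 0.42 on the log2 scale (SE 0.131, adjusted p = 0.0343, edgeR), the only one of 10 genes called there against 8.39% of all genes. That call was lost when any of the 4 libraries was left out and with DESeq2.
SRSF4 and SRSF6 were called lower after 7 days of GSK591 with Dex for 3 h. SRSF4 stood there at 17.4 and 16.7 CPM, against 28.3 and 23.2 CPM in untreated cells, a fall of 0.59 (SE 0.190, adjusted p = 0.0216, edgeR) that was lost without untreated replicate 1 or without either treated library. The fall of SRSF6 there was 0.30 (SE 0.114, adjusted p = 0.0450, edgeR) and was lost in 8 of 11 alternatives, among them leaving out untreated replicate 2 or either treated library.

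SRSF1, a founding member of the family with roles in splicing, export and decay, could not be followed closely. GENCODE 29 places exons of AC015813.2 on 56.6% of its exonic bases on the same strand, and the row held only 14 to 64 counts per library. Untreated libraries had 5.01 and 3.32 CPM, and those with GSK591 for 2 days 1.88 and 2.41 CPM. The log2 fold change of -0.93 (95% interval -1.62 to -0.24, adjusted p = 0.110, edgeR) did not pass, and no comparison called SRSF1. SRSF11, an SR-related factor whose exons fill 17.9% of a long gene, was not called in any comparison either. Its widest difference from untreated cells, -0.57, came in the 3 groups with 7 days of MS023, where the unadjusted p lay between 0.0363 and 0.0402 and the adjusted p between 0.122 and 0.152 (edgeR).

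With MS023 alone, the inhibitor of the Type I enzymes, every call against untreated cells was again a fall. SRSF7 was lower at 2 days, SRSF2, SRSF3, SRSF7 and SRSF10 at 4 days, and SRSF2 and SRSF4 at 7 days. The calls were 1 of 10 genes at 2 days against 10.4% of all genes, 4 of 10 at 4 days against 14.2% and 2 of 10 at 7 days against 13.6%. Among genes averaging 5 CPM or more the called share was 16.1%, 19.6% and 18.2%, so the counts at 2 and 7 days were near it. Genes called lower were 4.21%, 6.37% and 6.51% of all genes. The median log2 fold change of the 10 genes was -0.18, -0.36 and -0.23 at 2, 4 and 7 days, beside 0.00, 0.00 and 0.01 for all genes.
These directions hold relative to the other genes only. Scaling by total counts, in which mitochondrial genes weigh most, raised the median gene by 0.68, 0.74 and 1.02 at 2, 4 and 7 days, and all 7 of these falls then became positive values, from 0.25 for SRSF2 and 0.27 for SRSF7 at 4 days to 0.49 for SRSF2 at 7 days.
Relative to that median the values were -0.39 for SRSF7 at 2 days, -0.49 for SRSF2 and -0.47 for SRSF7 at 4 days, and -0.53 for SRSF2 and -0.63 for SRSF4 at 7 days.

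SRSF7 stood at 88.2 and 111 CPM after 2 days of MS023, 98.6 and 87.4 CPM after 4 days and 142 and 129 CPM after 7 days. The first 4 of these libraries were below both untreated ones, and the 7-day libraries overlapped them. Its log2 fold change was -0.39 (SE 0.107, adjusted p = 0.0132, edgeR) at 2 days and -0.48 (SE 0.107, adjusted p = 0.00101, edgeR) at 4 days. The 2-day call was lost without untreated replicate 1 or MS023 replicate 1, and the 4-day call without untreated replicate 1 or MS023 replicate 2. Between 7 and 2 days of MS023 SRSF7 rose by 0.44 (SE 0.107, adjusted p = 0.00330, edgeR), a call lost without MS023 2-day replicate 1 or MS023 7-day replicate 1. The authors' deposited tables do not show this rise. Against untreated cells they list SRSF7 at 0.18 at 2 days and 0.07 at 7 days of MS023, neither called.

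SRSF2 fell with time in MS023. It had 15.4 and 13.1 CPM at 2 days, 10.2 and 8.69 CPM at 4 days and 9.77 and 8.69 CPM at 7 days. The fall between 2 and 7 days was 0.62 (SE 0.170, adjusted p = 0.00995, edgeR), and it was lost without MS023 2-day replicate 1, without MS023 7-day replicate 2 and with DESeq2. These were the 2 of 10 genes called between 7 and 2 days of MS023, against 13.2% of all genes. The falls of SRSF2, SRSF3 and SRSF10 against untreated cells at 4 days were 0.50, 0.32 and 0.41. They were lost when any of the 4 libraries was left out, with DESeq2 and without the filter. SRSF4 had 17.2 and 15.9 CPM at 7 days, both below the untreated libraries, a fall of 0.63 (SE 0.182, adjusted p = 0.0194, edgeR) that was lost without untreated replicate 1 or either MS023 library. The fall of SRSF2 at 7 days (0.53) was lost without the same 3 libraries, with DESeq2 and without the filter.

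The inhibitors were compared directly at matched dose and time. At 2 days none of the 10 genes was called between GSK591 and MS023, where 2.69% of all genes were (1 of the 10, TRA2B, at an unadjusted p below 0.05, and none with DESeq2). The difference in TRA2B was -0.37 (95% interval -0.62 to -0.11, adjusted p = 0.136, edgeR). At 4 days SRSF2, SRSF7 and TRA2B were lower with GSK591, 3 of 10 genes against 6.03% of all genes, and at 7 days SRSF7 and TRA2B were, 2 of 10 against 9.38%.
TRA2B had 29.2 and 28.3 CPM with MS023 at 4 days and 29.0 and 29.5 CPM at 7 days, all above the GSK591 libraries of the same time. Its log2 difference, GSK591 against MS023, was -0.53 (SE 0.129, adjusted p = 0.00579, edgeR) at 4 days and -0.61 (SE 0.133, adjusted p = 0.00123, edgeR) at 7 days. The 7-day difference held in all 11 alternatives, and the 4-day one was lost without replicate 1 of either inhibitor. Scaling by total counts put the median gene at -0.33 at 4 days and -1.07 at 7 days. This shift has the direction of these differences, so that alternative was no test of them.
SRSF2 differed at 4 days by -0.90 (SE 0.197, adjusted p = 0.00189, edgeR) and at 7 days by 0.01 (95% interval -0.35 to 0.38, edgeR). SRSF7 differed by -0.43 (SE 0.108, adjusted p = 0.00905, edgeR) at 4 days and -0.36 (SE 0.107, adjusted p = 0.0255, edgeR) at 7 days. The 4-day differences of SRSF2 and SRSF7 were lost without GSK591 replicate 2 or MS023 replicate 1, and the 7-day difference of SRSF7 without either GSK591 library, without MS023 replicate 1 and with DESeq2. SRSF10 did not pass at any of the 3 times, and its difference at 7 days was -0.31 (95% interval -0.61 to 0.00, edgeR).

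**Figure D3:**
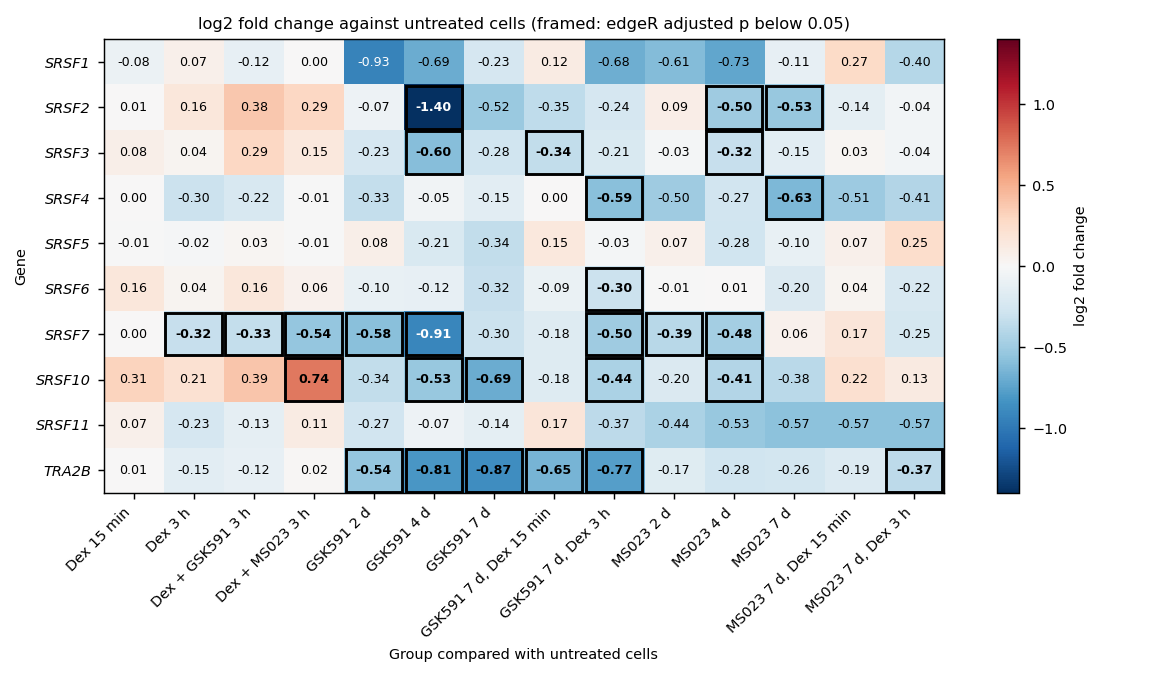
log2 fold change of each SR gene (rows) in each treated group against untreated cells (columns), from blue (lower) to red (higher), with the value written in each cell and frames where the edgeR adjusted p is below 0.05. The TRA2B row is framed on blue in all 5 groups with GSK591 for 2 days or more and not with Dex and GSK591 for 3 h, and the single frame on red is SRSF10 with Dex and MS023 together, 0.74.

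The response of SR genes to Dex was small in cells not treated with inhibitor for days. After 15 min none of the 10 genes was called, against 1.26% of all genes (1 of the 10, SRSF10, had an unadjusted p below 0.05, and DESeq2 called none). After 3 h SRSF7 alone was called, 1 of 10 against 10.5% (16.2% of genes averaging 5 CPM or more). It stood at 100 and 107 CPM, below both untreated libraries, with a log2 fold change of -0.32 (SE 0.108, adjusted p = 0.0417, edgeR), but the call was lost when any of the 4 libraries was left out, with DESeq2, with total counts, without the filter and with these groups fitted alone.
With GSK591 added for the same 3 h SRSF7 was at 103 and 105 CPM, again the 1 gene of 10 called (11.9% of all genes, 18.0% of those averaging 5 CPM or more). That fall of 0.33 was lost without untreated replicate 1, without either treated library, with DESeq2, with total counts and without the filter. With MS023 added SRSF7 was at 87.3 and 91.1 CPM (-0.54, SE 0.108, adjusted p = 0.000240, edgeR), a call lost with total counts (-0.05) and with only these groups fitted.

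SRSF10 rose in the group with Dex and MS023 together. Its libraries stood at 33.0 and 43.4 CPM, both above every library of the untreated and Dex-only groups, which lay between 21.1 and 29.8 CPM. With Dex and GSK591 together SRSF10 stood at 28.0 and 32.2 CPM, also above both untreated libraries, and was not called. Against untreated cells the rise with Dex and MS023 was 0.74 on the log2 scale (SE 0.140, adjusted p = 0.000114, edgeR). There 2 of 10 genes, SRSF10 and SRSF7, were called against 12.0% of all genes (18.4% of those averaging 5 CPM or more). The call of SRSF10 stood when each of the 4 libraries was left out, the divergent replicate 2 included. It was lost when only these groups were fitted (adjusted p = 0.0717, edgeR). Against Dex alone for 3 h the difference was 0.54 (95% interval 0.26 to 0.81) and did not pass the threshold (adjusted p = 0.0724, edgeR). None of the 10 genes was called in that comparison, where 0.196% of all genes were, and 2 of the 10 (SRSF7 and SRSF10) had an unadjusted p below 0.05, while DESeq2 called none. For GSK591 with Dex against Dex alone 0 of 10 genes and 0.00% of all genes were called (1 of the 10, SRSF3, at an unadjusted p below 0.05, and none with DESeq2).

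After 7 days of MS023, Dex raised SRSF10 at both times. It went from 18.6 and 16.5 CPM without Dex to 25.6 and 27.9 CPM after 15 min and 25.6 and 24.5 CPM after 3 h, with no overlap. The rise was 0.60 at 15 min (SE 0.140, adjusted p = 0.00765, edgeR), the 1 call among 10 genes against 2.07% of all genes. At 3 h it was 0.51 (SE 0.139, adjusted p = 0.00869, edgeR), and SRSF2 (0.49) and SRSF5 (0.35) were called too, 3 of 10 genes against 11.1%.
The 15 min call of SRSF10 was lost without MS023 replicate 2 or MS023 with Dex replicate 2, and the 3 h call without MS023 replicate 2, without MS023 with Dex replicate 1 and with DESeq2. Both calls of SRSF10 were also lost with total counts. The calls of SRSF2 and SRSF5 at 3 h, with adjusted p of 0.0449 and 0.0497 (edgeR), were lost in 7 and 8 of 11 alternatives, among them leaving out either MS023 library, MS023 with Dex replicate 1 and, for SRSF2, replicate 2. Both 7-day MS023 libraries are shared by these comparisons.
With GSK591 for 7 days, Dex for 15 min raised SRSF5 from 30.5 and 32.2 CPM to 36.1 and 51.3 CPM (0.49, SE 0.130, adjusted p = 0.0281, edgeR), the 1 call among 10 genes against 2.09% of all genes. Its call was lost without either library of GSK591 alone and without the higher of the 2 Dex libraries, replicate 2, whose mitochondrial share was 69.9% against 78.2% in replicate 1. The SRSF5 call was also lost with DESeq2, with total counts and with only these groups fitted. SRSF10 had 0.51 there and did not pass (adjusted p = 0.0837, edgeR).

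Whether an inhibitor changes the response to Dex was tested as an interaction, the change with Dex for 3 h after 7 days of inhibitor minus that without inhibitor. None of the 10 genes was called for either inhibitor, where 0.223% of all genes were in each (unadjusted p below 0.05 in 0 of 10 for GSK591 and in 1 of 10, SRSF5, for MS023; DESeq2 called none). For SRSF10 the interaction was 0.31 with MS023 (95% interval -0.09 to 0.70) and 0.05 with GSK591 (-0.38 to 0.48). A difference in its Dex response was thus not detected with 2 libraries per group, and the intervals do not exclude one. For MS023 with Dex after 7 days, against untreated cells, 0 of 10 genes were called at 15 min against 17.2% of all genes (2 of the 10 at an unadjusted p below 0.05, and none with DESeq2). At 3 h 1 of 10, TRA2B (-0.37, SE 0.124, adjusted p = 0.0255, edgeR), was called against 21.9% (30.0% of genes averaging 5 CPM or more). That call was lost without untreated replicate 2, without replicate 2 of the treated group, without the filter and with DESeq2. The value became 0.63 with scaling by total counts, where the median gene rose by 1.00.

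The authors' deposited tables against untreated cells list 7 of the 10 genes and come from another counting of the same libraries. The authors' deposited tables gave SRSF1 a mean of 346 normalized counts, 9.41 times its mean in the count table, and gave SRSF7 0.377 times and SRSF5 0.247 times theirs. Of 98 values, 21 were called from the count table and 36 in the authors' deposited tables, 16 of them in both and all 16 in the same direction.
The authors' deposited table for GSK591 at 4 days calls 5 of the 7 genes lower, with SRSF2 at -1.40, SRSF3 at -0.63, SRSF7 at -0.79 and TRA2B at -0.70. The fifth, SRSF6, is at -0.44 in the authors' deposited table and at -0.12, not called, in the count table, and SRSF1 is at -0.16 in the authors' deposited table against -0.69, called in neither. At 7 days of GSK591 the authors' deposited table calls 6 of the 7 genes lower, with SRSF2 at -0.65, SRSF3 at -0.40, SRSF7 at -0.36 and TRA2B at -0.83. Their background, the share called among genes with an adjusted p in the authors' deposited tables, was 26.8% at 4 days and 23.8% at 7 days of GSK591.
The call differed between the sources for 5 values called from the count table alone and 20 called by the authors alone, and the latter included SRSF2 (0.42) and SRSF3 (0.27), called higher with Dex and GSK591 in the authors' deposited table. The authors' deposited tables list SRSF7 at 0.07 for GSK591 and 0.18 for MS023 at 2 days, neither called, where the count table gave -0.58 and -0.39. All 5 calls made from the count table alone were of SRSF7, and all lay in groups of Dex for 3 h or inhibitor for 2 days. At 2 days the sources thus differed in direction. In the groups of Dex for 3 h, alone or with GSK591 or MS023, the authors' deposited tables list SRSF7 at -0.18, -0.20 and -0.28, lower in each but not called. For SRSF1 the authors' deposited tables call a fall in 5 comparisons: 0.32 at 2 days and 0.34 at 7 days of GSK591, 0.33 at 4 days of MS023, and, with Dex for 3 h, 0.66 after 7 days of GSK591 and 0.43 after 7 days of MS023.

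**Figure D4:**
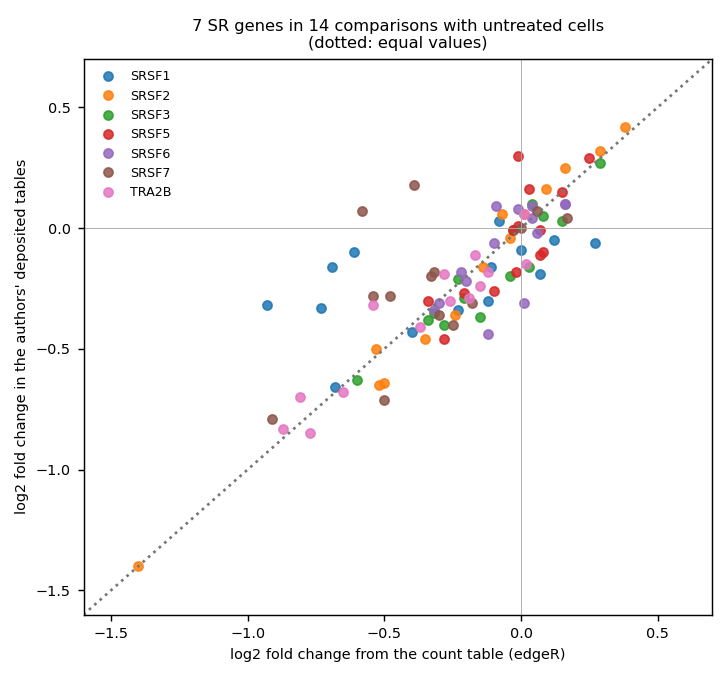
log2 fold change of 7 SR genes in 14 comparisons with untreated cells, from the count table (horizontal axis) and from the authors' deposited tables (vertical axis), with 1 point per gene and comparison and a dotted line of equal values. SRSF2 at 4 days of GSK591 lies on the line at -1.40 in both, and SRSF7 at 2 days of inhibitor lies above it, at 0.07 and 0.18. Whether the authors' values were shrunken is not given in the sources used here.

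Other genes of the SR pathway were followed by lists of their roles. The 4 remaining SR family genes (TRA2A, SRSF8, SRSF9 and SRSF12) had no call in the 6 comparisons of an inhibitor alone with untreated cells, with medians from -0.05 to 0.06. In these comparisons 2.45% to 8.28% of all genes were called lower. Among 9 kinase and import genes, no gene rose in these 6 comparisons and at most 1 fell in each. TNPO3, which encodes transportin-3, fell by 0.56 at 2 days of GSK591, the kinase gene DYRK1A by 0.40 at 7 days of GSK591, and SRPK1, the cytoplasmic SR kinase, by 0.54 at 7 days of MS023.
SR-related partners and splice site factors (12 of 13 tested) had medians from -0.51 to -0.33 in the 6 comparisons, with no rise and between 0 and 4 falls. PNN, a nuclear speckle protein, fell by 1.33, 1.58 and 1.24 at 2, 4 and 7 days of MS023. The fall was not particular to MS023, since PNN also fell by 1.43 (SE 0.352) with Dex for 3 h and no inhibitor. All these values share the same untreated libraries. SON, a scaffold of nuclear speckles, fell by 0.59 at 4 days of GSK591. Of 10 genes of nonsense-mediated decay, between 0 and 2 fell in each of the 6 comparisons and none rose. SMG8, a regulator of the kinase SMG1, fell by 0.60 at 4 days and 0.53 at 7 days of GSK591. UPF3B, of the exon junction branch, fell by 0.94 at 4 days and 1.10 at 7 days of MS023.
After 7 days of GSK591 with Dex for 3 h, 8 of the 12 partner genes tested fell and none rose, with a median of -0.62, and PNN fell by 1.41. Of the 10 decay genes 6 fell there and none rose, with a median of -0.42. In that comparison 13.0% of all genes were called lower, and 21.4% of those averaging 5 CPM or more. TRA2A, the paralog of TRA2B, fell by 0.50 with Dex for 3 h, SRSF12 rose by 1.28 with Dex and GSK591 together, and SRPK1 fell by 0.82 after 7 days of GSK591 with Dex for 3 h (all edgeR adjusted p below 0.05).

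The SR genes did not follow 1 pattern over the 15 groups. Pearson's r of group-mean log2 CPM over the 45 pairs of the 10 genes ran from -0.20 to 0.91 with a median of 0.34, as a description of means that share libraries and scaling. For each gene the most similar of 11117 other genes averaging 5 CPM or more was found on the same measure. TRA2B was closest to PLK4 (r = 0.971), the kinase of centriole duplication, and SRSF2 to H2AZ1 (0.932), a histone variant gene. SRSF11 was closest to ACTN4 (0.977), SRSF7 to AUP1 (0.948), SRSF10 to ADRA1B (0.938), SRSF4 to YLPM1 (0.930) and SRSF3 to NUDT1 (0.923). The remaining nearest genes were RPS3 for SRSF6 (0.890), H3-3B for SRSF1 (0.883) and EXOC8 for SRSF5 (0.826). Each is the highest of 11117 values over 15 groups and is given as a description.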

How the data were processed

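PRO-seq libraries were analysed from the authors' deposited whole-number counts per gene (GENCODE 29 identifiers, not normalised). Subread, featureCounts 2.0.1 and hg38 are named per the submitters' processing notes. The aligner, feature type and strand setting are not given in the sources used here. The authors also deposited 14 comparison tables with DESeq2 columns, per the file headers. Their baseMean is a signal averaged over samples by the authors, and their log2 fold changes, standard errors and p-values are the authors' own.

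The main test was edgeR's quasi-likelihood test with TMM scaling and robust estimates (edgeR 4.0.16, limma 3.58.1, R 4.3.3). After filterByExpr (at least 10 counts, total of 15) 22919 genes remained, all 10 SR genes among them. A single model over the 15 groups left 15 residual degrees of freedom. Each of 27 comparisons was corrected by Benjamini-Hochberg and called at an adjusted p below 0.05. A standard error is the size of the log2 value divided by the root of F, and 95% intervals use it with the normal quantile. CPM was scaled by TMM, and per-kilobase values divide by exonic length in GENCODE 29.

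The genes, the lists and the tests were chosen with earlier results of these data known. Named genes are the 10 SR genes, the largest called rise and fall of each list in a comparison, the gene most alike to each SR gene, and Dex-induced genes as a label check. The text gives those named in selected comparisons. Alternatives were DESeq2 size factors, total counts, no filter, a replicate block, exclusion of mitochondrial and ribosomal RNA genes, the compared groups alone, DESeq2 1.42.0, and each library left out. The procedure was tested on simulated data. These were drawn from the fitted means and dispersions with no shift of all genes, so that test does not bear on the choice of scaling. Counting error falls with depth, and SRSF1, at 14 to 64 counts per library, is the least precise. No molecular identifiers are mentioned in the sources used here, so no counting intervals are given.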

Additional observations from a re-analysis of the deposited data

Results flagged for a closer look

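The responses to the 2 inhibitors at the same time differed, by a test of the difference itself (GSK591 against MS023, edgeR quasi-likelihood test), for 5 values. On the log2 scale these were -0.90 for SRSF2, -0.43 for SRSF7 and -0.53 for TRA2B at 4 days, and -0.36 for SRSF7 and -0.61 for TRA2B at 7 days. In each case both GSK591 libraries lay below both MS023 libraries. The values were picked by the test on these same libraries, so the lack of overlap adds no support.

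The response to 1 inhibitor differed between times for 3 values, tested in the same way as 7 days against 2 days. SRSF5 differed by -0.42 with GSK591, and with MS023 SRSF2 differed by -0.62 and SRSF7 by 0.44. The authors' deposited tables do not show that rise of SRSF7, with 0.18 at 2 days and 0.07 at 7 days of MS023 against untreated cells. The mitochondrial share of counts at 7 days was 58.7% and 59.6% with MS023 and 73.7% and 78.7% with GSK591. Leaving out mitochondrial and ribosomal RNA genes kept all 8 of these calls.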

How the results depend on the processing

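Of 41 calls, 3 kept direction and threshold in all 11 alternatives (SRSF2 at 4 days of GSK591, TRA2B at 7 days of GSK591 and TRA2B between the inhibitors at 7 days), 38 fell below the threshold in at least 1, and 8 changed sign in 1. For TRA2B between the inhibitors total counts put the median gene at -1.07, in the direction of the call, and were no test of it. Of 451 alternative values, 302 kept both, 141 lost the call and 8 reversed. Where no cause is given, the cause was not tested. The 8 reversals, all with scaling by total counts, under which the median gene rose with MS023, were SRSF7 at 2 days of MS023 (0.29), SRSF2 (0.25), SRSF3 (0.42), SRSF7 (0.27) and SRSF10 (0.34) at 4 days, SRSF2 (0.49) and SRSF4 (0.40) at 7 days, and TRA2B at 7 days with Dex for 3 h (0.63).

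Scaling by total counts gave, of the 10 genes against untreated cells, 0 called with Dex for 3 h, 0 with Dex and GSK591, 3 with Dex and MS023 (all higher), 0, 1 and 1 at 2, 4 and 7 days of GSK591, 0 when Dex for 15 min or 3 h followed GSK591, 4, 1 and 7 at 2, 4 and 7 days of MS023 (all higher), and 8 when Dex for 15 min or 3 h followed MS023 (all higher). It gave 0 for Dex after either inhibitor where calls had been made, 1 and 9 between the inhibitors at 2 and 7 days, and 1 between 7 and 2 days of MS023.
Without the filter 0 genes were called with Dex for 3 h and with Dex and GSK591, 2 at 2 and at 4 days of MS023 and with Dex for 15 min after MS023, and 1 for Dex and MS023 against Dex and for Dex for 3 h after MS023 against MS023.
With only the compared groups, against untreated cells 0 genes were called with Dex for 3 h, 4 with Dex and GSK591, 0 with Dex and MS023, 3, 7 and 4 at 2, 4 and 7 days of MS023, 5 at 7 days of GSK591, 1 with Dex for 15 min after GSK591, and 2 and 3 with Dex for 15 min and 3 h after MS023. It gave 0 and 1 for Dex for 15 min and 3 h after GSK591 against GSK591, 4 between the inhibitors at 7 days and 2 between 7 and 2 days of GSK591.
DESeq2 called 23 in all, every one shared with the 41. It gave 0 with Dex for 3 h, with Dex and GSK591 and with Dex for 3 h after MS023, 1 at 4 and at 7 days of MS023, 1 and 3 with Dex for 15 min and 3 h after GSK591, 0 for Dex for 15 min after GSK591 against GSK591 and for Dex for 3 h after MS023 against MS023, 1 between the inhibitors at 7 days, and 0 and 1 between 7 and 2 days of GSK591 and MS023. DESeq2 size factors in edgeR moved 1 count, to 1 with Dex for 15 min after GSK591, and leaving out mitochondrial and ribosomal RNA genes moved 0 of 27.

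Over all 105 pairs of groups, same-numbered libraries deviated together with a median r of 0.021. Single pairs ran from -0.451 to 0.487, and 22 of the 105 had r above 0.1. Whether the numbers pair the samples within some of the groups was not tested. With the replicate block 45 calls were made, all 41 among them, with 2 for Dex and GSK591 against untreated cells and 1 for Dex and MS023 against Dex.

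Leaving out each library in turn gave these ranges of called genes against untreated cells: 0 to 0 with Dex for 3 h, 0 to 1 with Dex and GSK591, 1 to 2, 4 to 5 and 2 to 4 at 2, 4 and 7 days of GSK591, 1 to 2 and 2 to 4 with Dex for 15 min and 3 h after GSK591, 0 to 1, 0 to 1 and 0 to 2 at 2, 4 and 7 days of MS023, and 0 to 2 and 0 to 1 with Dex for 15 min and 3 h after MS023. The other ranges were 0 to 1 for Dex and MS023 against Dex, 0 to 1 for Dex for 15 min after either inhibitor against the inhibitor, 0 to 2 for Dex for 3 h after MS023, 0 to 3 and 1 to 2 between the inhibitors at 4 and 7 days, and 0 to 0 and 0 to 2 between 7 and 2 days of GSK591 and MS023. A group left with 1 library was assumed to vary like the others. At 2 libraries per group, a permutation test of a single gene could not reach 0.05.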
